A study of Saccharomyces cerevisiae with 4 samples.

Results

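Small RNAs of 34 genes that build the prospore membrane and the spore wall of Saccharomyces cerevisiae, the budding yeast, were measured in 4 libraries. The genes were chosen by name from a list of late sporulation genes, and all 34 were found among the 5798 genes listed. That choice, and that of the lists used for comparison, was made with earlier results of these data known. The group comparisons below therefore describe these data and are not an independent check. RNA of 10 to 40 nucleotides was sequenced from 4 genotypes, with 1 library each: wild-type cells (WT, strain YAM1730), cells carrying DCR1 and AGO1 (DCR1 AGO1, strain YAM1725), cells lacking XRN1 (xrn1-delta, strain YAM2271), and cells lacking XRN1 that carried DCR1 and AGO1 (xrn1-delta DCR1 AGO1, strain YAM1982). Budding yeast has no RNA interference of its own. DCR1 encodes a Dicer, which cuts double-stranded RNA into small RNAs, AGO1 encodes an Argonaute, which binds them, and XRN1 encodes the cytoplasmic 5′ to 3′ exoribonuclease. Each genotype is 1 strain. The rule for these genes calls the cells vegetative, but no label used here states the growth phase, the ploidy or the mating type, nor which promoters drive DCR1 and AGO1. The series title states the aim as a map of double-stranded RNA made with the rebuilt pathway.

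Summed over all genes listed, WT had 627607 reads, DCR1 AGO1 1801407, xrn1-delta 2825322 and xrn1-delta DCR1 AGO1 7686801. Values below are on the deposited scale and are not divided by gene length unless stated. On it 1 read was worth 1 in WT, 0.318 in DCR1 AGO1, 0.330 in xrn1-delta and 0.0762 in xrn1-delta DCR1 AGO1, so a count of 0 allows a value of up to 3, 0.953, 0.991 and 0.229, respectively (3 reads). XRN1 itself had values of 148, 12.4, 0.991 and 0 in these libraries, in the same order, so the deletion was visible in both xrn1-delta libraries. As each genotype is a single library, there are no replicates, and "higher" and "lower" compare 2 libraries. Each interval is at 95% and covers only the error of counting. Folds against a count of 0 set it to 3 reads and take the other count as exact, so they are not 95% limits. Sense and antisense small RNAs were not separated in the values, and fewer cells of a type cannot be told apart from less RNA per cell.

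During sporulation a diploid yeast cell packs the 4 products of meiosis into spores. A meiosis-specific outer plaque on each spindle pole body starts the prospore membrane, septins and a ring at its leading edge shape it, and a wall of mannan, glucan, chitosan and dityrosine is then laid down around each nucleus. Most of these genes belong to the middle and late classes of sporulation genes, which the repressor Sum1 keeps off in growing cells and the activator Ndt80 turns on, both through the middle sporulation element in their promoters.

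The promoters are shown because that element is what the genes share beyond their function. Its core, searched as CACAAA or CGCAAA on either strand in the 250 bases before the start codon, was present in 32 of the 34 genes (94.1%), against 1466 of 5766 promoters of nuclear coding genes (25.4%). Longer forms with A or T after the core, which overlap it, were present in 25 of the 34 (73.5%) and in 16.6% of all promoters. DIT2 and OSW1 had no core in this window, and 8 genes had 2 or more. The windows below are those of the 6 genes with the highest values in any library, read 5′ to 3′ from the RefSeq assembly R64 by gene identifier, with the core in capitals on whichever strand it lay. They span chrXVI:666030-666279 (plus strand) for SMK1, chrXII:592044-592293 (minus strand) for ADY4, chrXII:567923-568172 (minus strand) for CRR1, chrXV:690445-690694 (plus strand) for SPR1, chrXVI:304137-304386 (plus strand) for SPO19 and chrIV:1273704-1273953 (minus strand) for DIT2.
SMK1: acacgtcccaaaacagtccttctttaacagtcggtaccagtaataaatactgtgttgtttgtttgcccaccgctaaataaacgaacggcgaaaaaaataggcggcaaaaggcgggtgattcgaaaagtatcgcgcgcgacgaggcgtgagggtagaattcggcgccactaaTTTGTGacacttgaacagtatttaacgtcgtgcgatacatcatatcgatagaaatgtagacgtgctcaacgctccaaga
ADY4: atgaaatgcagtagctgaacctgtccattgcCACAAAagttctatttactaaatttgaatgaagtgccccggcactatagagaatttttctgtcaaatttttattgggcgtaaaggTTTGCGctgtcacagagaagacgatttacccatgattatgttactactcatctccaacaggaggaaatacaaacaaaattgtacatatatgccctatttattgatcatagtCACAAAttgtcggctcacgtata
CRR1: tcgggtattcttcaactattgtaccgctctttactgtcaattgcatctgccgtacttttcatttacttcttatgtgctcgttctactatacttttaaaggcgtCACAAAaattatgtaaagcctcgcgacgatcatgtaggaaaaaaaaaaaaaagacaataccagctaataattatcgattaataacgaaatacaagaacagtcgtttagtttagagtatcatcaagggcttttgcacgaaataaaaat
SPR1: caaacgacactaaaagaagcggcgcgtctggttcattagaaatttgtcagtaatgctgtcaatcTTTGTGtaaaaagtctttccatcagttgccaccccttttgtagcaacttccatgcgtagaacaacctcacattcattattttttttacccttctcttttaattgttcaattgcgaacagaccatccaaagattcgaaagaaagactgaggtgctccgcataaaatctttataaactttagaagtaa
SPO19: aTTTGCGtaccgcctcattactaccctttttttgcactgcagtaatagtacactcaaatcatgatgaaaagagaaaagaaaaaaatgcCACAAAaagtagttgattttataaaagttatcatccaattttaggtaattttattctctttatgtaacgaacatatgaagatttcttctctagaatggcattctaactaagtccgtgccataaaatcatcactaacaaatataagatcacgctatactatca
DIT2: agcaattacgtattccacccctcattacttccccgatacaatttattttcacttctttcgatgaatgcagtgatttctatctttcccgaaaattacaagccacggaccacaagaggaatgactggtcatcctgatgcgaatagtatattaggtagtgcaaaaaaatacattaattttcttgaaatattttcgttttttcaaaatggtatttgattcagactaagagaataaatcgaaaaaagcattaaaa
The core lay 79 bases before the start codon in SMK1, 147 in CRR1 and 186 in SPR1, counted from its first base. ADY4 had 3 cores, at 219, 134 and 23 bases, and SPO19 had 2, at 249 and 162 bases. Of these 6 genes SPO19 was highest in WT, SMK1, CRR1 and DIT2 in DCR1 AGO1, and ADY4 and SPR1 in xrn1-delta DCR1 AGO1. As 32 of the 34 genes had a core, its presence could not separate genes by the library where they were highest.

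As a group the spore genes, 34 of the 5767 nuclear coding genes, took 0.0831% to 0.386% of the reads over these genes. That share was lowest in xrn1-delta. The 34 genes received 1331 of 449338 such reads in WT, or 0.296% (Clopper-Pearson interval 0.281 to 0.313%). The share was 0.386% (0.377 to 0.396%) in DCR1 AGO1, 0.0831% (0.0790 to 0.0874%) in xrn1-delta and 0.252% (0.248 to 0.255%) in xrn1-delta DCR1 AGO1. A single gene held a large part of each: SPO19 had 22.7% of the spore gene reads in WT, SMK1 37.5% in DCR1 AGO1, SPO24 26.1% in xrn1-delta and ADY4 35.3% in xrn1-delta DCR1 AGO1. Without that gene the shares were 0.229%, 0.241%, 0.0614% and 0.163%, with WT and DCR1 AGO1 close and xrn1-delta still lowest. A different gene is left out in each library, so these shares do not cover the same set. None of the shares depends on how the libraries were scaled.

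**Figure D1:**
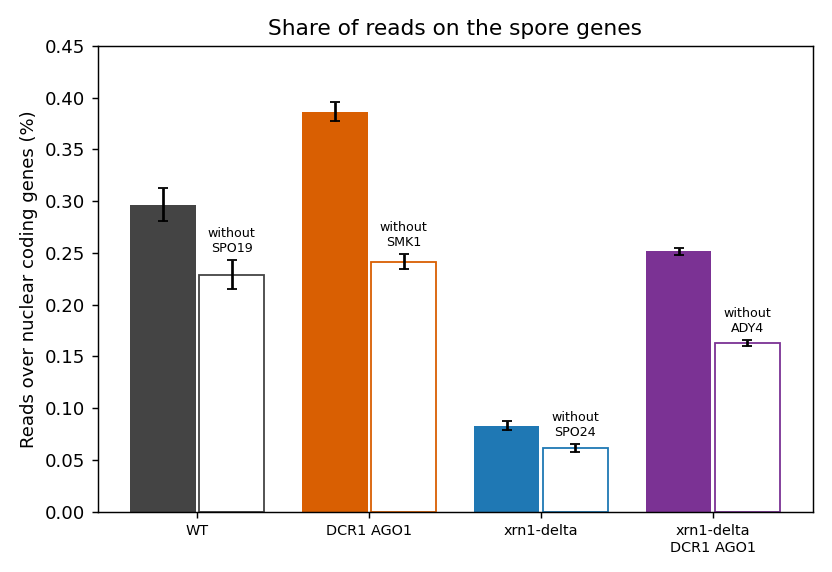
Share of the reads over nuclear coding genes that fell on the 34 spore genes in each library (y axis, percent), with all genes (filled bars) and without the gene with the most reads (open bars); error bars are 95% Clopper-Pearson intervals. The share was 0.0831% in xrn1-delta and between 0.252% and 0.386% in the other 3 libraries.

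Per length of coding sequence, most spore genes lay low among the 5767 nuclear coding genes. Their median percentile of value per kilobase was 17.8 in WT, 37.8 in DCR1 AGO1, 7.03 in xrn1-delta and 12.9 in xrn1-delta DCR1 AGO1. In xrn1-delta 25 of the 34 were below percentile 10 and 33 below percentile 50, SPO24 being the exception at percentile 98.6. Single genes stood high in the other libraries: SPO19 at percentile 99.0 in WT, SMK1 at 98.5, CRR1 at 96.5 and DIT2 at 91.4 in DCR1 AGO1, and SPO24 at 96.4, ADY4 at 95.1 and SPR1 at 92.7 in xrn1-delta DCR1 AGO1.

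**Figure D2:**
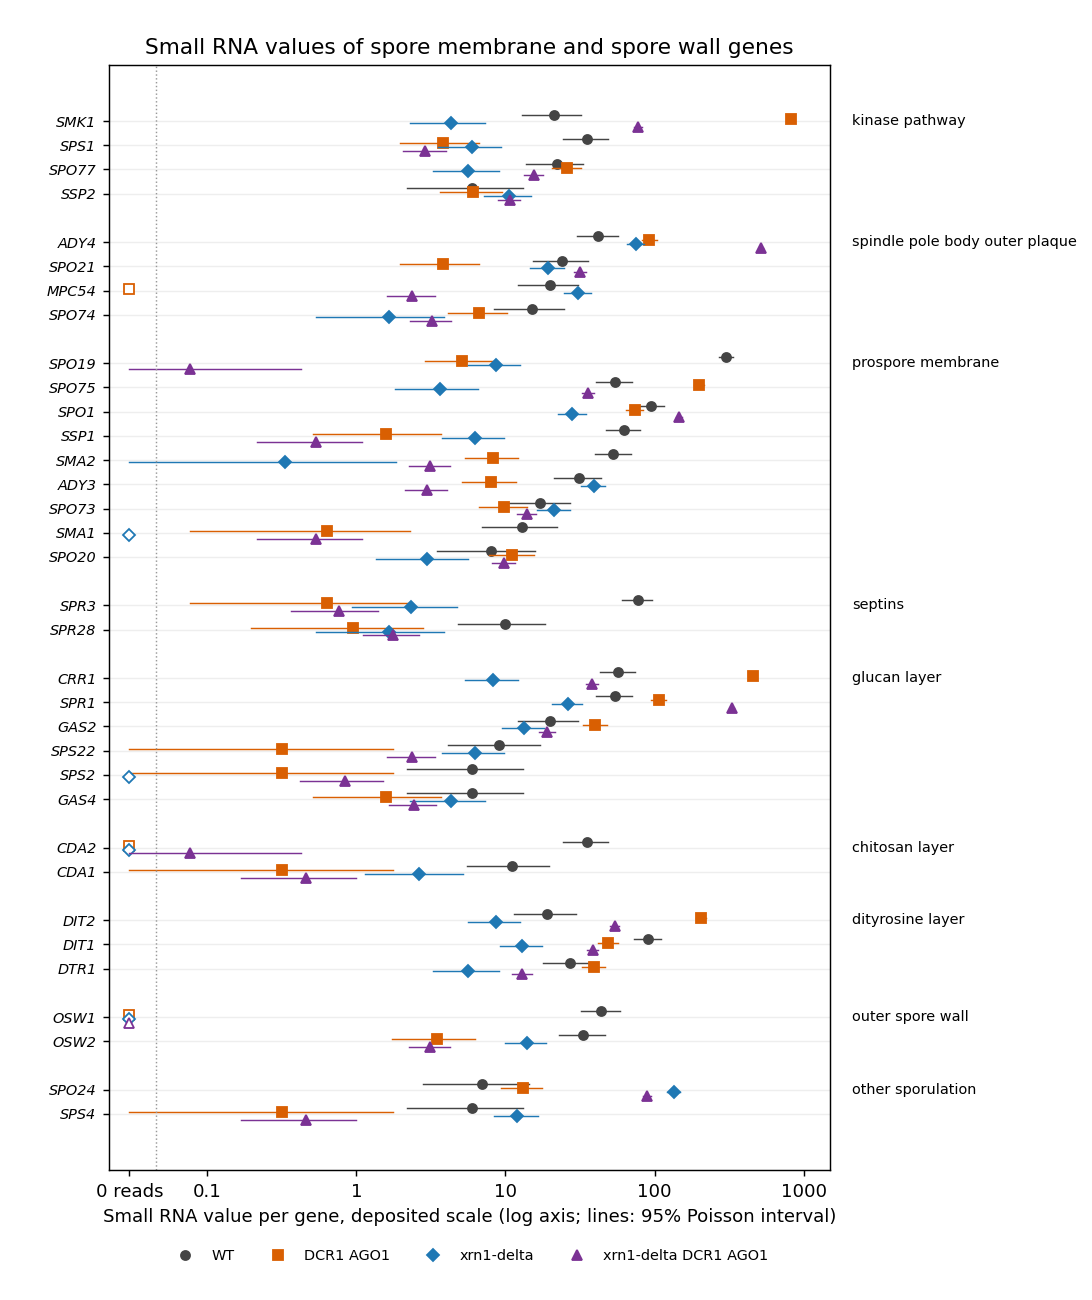
Small RNA value of each spore gene (rows, grouped by role) in the 4 libraries on the deposited scale (log x axis); lines are 95% Poisson intervals of counting error, cut off at the left edge, and open symbols left of the dotted line are counts of 0. SMK1 reached 826 in DCR1 AGO1 and SPO19 302 in WT, while OSW1 had reads in WT alone.

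The kinase genes of spore wall formation differed among themselves. SMK1 (YPR054W), the gene of the mitogen-activated protein kinase of spore wall assembly, had values of 21 in WT, 826 in DCR1 AGO1, 4.30 in xrn1-delta and 78 in xrn1-delta DCR1 AGO1. It was 39.3-fold higher in DCR1 AGO1 than in WT (interval 25.7 to 63.6) and 18.2-fold higher in xrn1-delta DCR1 AGO1 than in xrn1-delta (10.6 to 34.2). Both libraries with DCR1 and AGO1 were thus above both without them. SPS1 (YDR523C), a kinase gene of the same process, had 35 in WT and between 2.90 and 5.95 in the other 3 libraries. SPO77, a partner of Sps1 in closing the prospore membrane, had 22, 25.7, 5.62 and 15.5 in the order given above. SSP2, whose product activates Smk1, ranged only from 6 to 10.7.

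Of the outer plaque genes, ADY4 (YLR227C) had the highest values, 42 in WT, 92.1 in DCR1 AGO1, 75.0 in xrn1-delta and 519 in xrn1-delta DCR1 AGO1. The last was 6.92-fold above xrn1-delta (6.06 to 7.93) and 5.64-fold above DCR1 AGO1 (5.01 to 6.36), and all 3 other libraries were below 100. SPO21, a structural plaque gene, had 24, 3.81, 19.2 and 31.7, low in DCR1 AGO1 alone. MPC54, another plaque gene, had 20 and 30.7 in WT and xrn1-delta, but 0 reads in DCR1 AGO1 and 2.36 in xrn1-delta DCR1 AGO1. With 0 set to 3 reads, MPC54 was 21.0-fold lower in DCR1 AGO1 than in WT. Its 2 libraries with DCR1 and AGO1 were below the 2 without, the reverse of ADY4. SPO74, the remaining plaque gene, had 15 in WT and 1.65 to 6.67 elsewhere.

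Prospore membrane genes included the highest spore gene value of WT. SPO19 (YPL130W), which encodes a membrane-anchored prospore protein, had 302 in WT, 5.08 in DCR1 AGO1, 8.59 in xrn1-delta and 0.0762, a single read, in xrn1-delta DCR1 AGO1. The WT value was 59.4-fold above DCR1 AGO1 (36.0 to 105) and 35.2-fold above xrn1-delta (23.5 to 54.7). SSP1, a component of the leading edge ring, had 62 in WT and 1.59, 6.28 and 0.534 in the others, so WT stood alone for both. SMA2, needed for prospore membrane assembly, had 53 in WT, 8.26 in DCR1 AGO1, 1 read (0.330) in xrn1-delta and 3.13 in xrn1-delta DCR1 AGO1. SMA1 had 13 in WT, 0 reads in xrn1-delta and 0.635 or less in the other libraries. SPO75 (YLL005C), required for spore wall formation, was highest in DCR1 AGO1 and lowest in xrn1-delta, with 54 in WT, 198 in DCR1 AGO1, 3.63 in xrn1-delta and 36.0 in xrn1-delta DCR1 AGO1. SPO1, the gene of a phospholipase-like protein, had 95, 73.7, 28.1 and 146, and SPO20, the SNAP-25-like fusion protein gene, had 8, 11.1, 2.97 and 9.76. For both, xrn1-delta was lowest. ADY3, a leading edge gene, was high without DCR1 and AGO1 (31 in WT and 39.0 in xrn1-delta) and low with them (7.94 and 2.97), while SPO73, of membrane elongation, stayed between 9.84 and 21.1.

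Both septin genes had their highest value in WT. SPR3 (YGR059W), a sporulation septin, had 77 in WT, 2 reads (0.635) in DCR1 AGO1, 2.31 in xrn1-delta and 0.762 in xrn1-delta DCR1 AGO1, so WT stood above all 3 others. The value in xrn1-delta was 33.3-fold lower than in WT (15.4 to 85.6). SPR28, its partner, had 10 in WT and 0.953 to 1.75 elsewhere.

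Genes of the glucan layer fell on both sides. CRR1 (YLR213C), a putative glycosylase gene, had 57 in WT, 457 in DCR1 AGO1, 8.26 in xrn1-delta and 38.1 in xrn1-delta DCR1 AGO1. It was 8.02-fold higher in DCR1 AGO1 than in WT (6.16 to 10.6) and 12.0-fold lower in xrn1-delta DCR1 AGO1 than in DCR1 AGO1 (10.8 to 13.3). SPR1 (YOR190W), the sporulation exoglucanase gene, instead was highest with both changes, at 54, 106, 26.1 and 331. CRR1 and SPR1 thus had opposite orders of the 2 libraries with DCR1 and AGO1. GAS2, a glucanosyltransferase gene, had 20, 40.0, 13.2 and 19.0, and its relative GAS4 had 6 in WT and 4.30 or less elsewhere. SPS2 and SPS22, which organise the glucan layer, had 6 and 9 in WT and 1 read each in DCR1 AGO1.

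In the chitosan layer both chitin deacetylase genes had their highest value in WT. CDA2 had 35 reads in WT, 0 in DCR1 AGO1, 0 in xrn1-delta and 1 in xrn1-delta DCR1 AGO1. With 0 set to 3 reads, that is 36.7-fold lower in DCR1 AGO1 and 35.3-fold lower in xrn1-delta than in WT. CDA1 had 11 in WT and 0.318 to 2.64 elsewhere. The dityrosine genes differed from them. DIT2 (YDR402C), the cytochrome P450 gene that makes dityrosine precursors, had 19 in WT, 206 in DCR1 AGO1, 8.59 in xrn1-delta and 54.0 in xrn1-delta DCR1 AGO1. DIT1, its divergently transcribed neighbour, which acts before it, had 90, 48.9, 12.9 and 38.5, and was thus highest in WT, whereas DIT2 was highest in DCR1 AGO1. DTR1, the dityrosine transporter gene, had 27, 39.1, 5.62 and 13.0.

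Among the outer wall genes OSW1 (YOR255W) had 44 reads in WT and 0 in each of the other 3 libraries, although these held more reads over all genes. With 0 set to 3 reads, that is 46.2-fold lower in DCR1 AGO1 and 44.4-fold lower in xrn1-delta than in WT. OSW2 had 33 in WT and 3.49, 13.9 and 3.13 in the others. SPO24 (YPR036W-A), a short reading frame of 204 bases needed for efficient sporulation, was the spore gene with the highest value in xrn1-delta, with 7 in WT, 13.0 in DCR1 AGO1, 134 in xrn1-delta and 89.0 in xrn1-delta DCR1 AGO1. SPS4 had 6 in WT, 11.9 in xrn1-delta and 0.318 and 0.457 in DCR1 AGO1 and xrn1-delta DCR1 AGO1.

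Deletion of XRN1 without the pathway (xrn1-delta over WT) compares cells with and without the exonuclease where no Dicer is present. Of the 34 spore genes 20 were 2-fold or more lower in xrn1-delta (58.8%), where 9.4% of nuclear coding genes were, and 1, SPO24, was higher (2.94%), where 31.6% were. To each value 3.18 was added before taking log2, the level below which 10% of all values above 0 lie, and this pseudocount understates the change of low genes. The median difference of the spore genes was -1.48 and that of nuclear genes 0.44, a relative median of -1.92. Relative to the nuclear median, 23 were lower and 1 higher, against 17.4% and 19.5% of nuclear genes. All 9 prospore membrane genes, all 6 glucan layer genes, all 3 dityrosine genes and both genes each of the septins, chitosan layer and outer wall lay below the nuclear median, as did 3 of the 4 kinase pathway genes. The outer plaque genes were split, 2 above and 2 below, and both remaining genes, SPO24 and SPS4, lay above it.

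WT also stood apart in reads that were not scaled: 8 of the 34 genes (23.5%) had more reads in WT, the shallowest library, than in each of the other 3, namely SPR3, SSP1, SPO19, SMA1, SMA2, OSW1, CDA1 and CDA2. Of nuclear coding genes 2.25% did. On the deposited scale 16 spore genes had their highest value in WT, 8 in DCR1 AGO1, 5 in xrn1-delta and 5 in xrn1-delta DCR1 AGO1. Of nuclear genes with a read 25.2% were highest in WT, 11.2% in DCR1 AGO1, 47.1% in xrn1-delta and 16.6% in xrn1-delta DCR1 AGO1. These counts take no account of counting error. GAS4 and SPS22, for example, are among the 16 but did not differ between WT and xrn1-delta beyond it.

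The comparison of DCR1 AGO1 with WT asks which genes carry more small RNA with the pathway present. SMK1, DIT2, CRR1, SPO75 and ADY4 were 2-fold or more higher, and 17 spore genes were lower, SPO19, SPR3, OSW1, SSP1 and CDA2 the most. The 5 higher are 14.7% of the genes against 14.4% of nuclear genes, and the 17 lower are 50% against 56.8%, both close to the background. The median difference of nuclear genes was -1.39, and relative to it 13 spore genes were higher and 8 lower (33.0% and 30.0% of nuclear genes). With size factors, which put the nuclear median at 0, the numbers were 13 and 11. The share of nuclear genes under that scaling was not taken. The spread within the group was wide, from -3.81 for SPO19 to 6.49 for SMK1 relative to the nuclear median.

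With XRN1 absent, the same comparison (xrn1-delta DCR1 AGO1 over xrn1-delta) gave more spore genes with higher values. SPR1 (12.7-fold, 10.2 to 16.1), SMK1, ADY4, SPO75 (9.90-fold), DIT2 (6.29-fold, 4.26 to 9.70), SPO1 (5.21-fold, 4.19 to 6.55), CRR1 (4.61-fold), DIT1 (2.99-fold), SPO77 and SPO20 were higher. These 10 are 29.4% of the spore genes, against 14.5% of nuclear genes. The 6 lower, ADY3, MPC54, SPS4, SPO19, OSW2 and SSP1, are 17.6% against 54.4%. A further 8 lay under the pseudocount in both libraries and could not be called, where 6.07% of nuclear genes did. With size factors, which put the nuclear median at 0, 15 were higher and 3 lower, and the nuclear share was not taken. Relative to the nuclear median of -1.29, 21 were higher and 2 lower (34.0% and 31.3% of nuclear genes), but 6 of the 21 lay under the pseudocount on both sides, where a gene with 0 reads in each library, such as OSW1, is placed 1.29 above the nuclear median.

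The comparisons with and without XRN1 share no library. SMK1, DIT2, SPO75, CRR1 and ADY4 were higher in both, 14.7% of the spore genes, against 9.24% of nuclear genes, and 6 (17.6%) were lower in both, against 45.2%. Across the 34 genes, which share library depth and scaling, the log2 differences had a Pearson's r of 0.72 and a Spearman's rho of 0.71, and across nuclear genes 0.76 and 0.75. The difference between the effects of DCR1 and AGO1 in the 2 backgrounds had a median of 1.16 among the spore genes on the log2 scale. It was 2-fold or more in favour of xrn1-delta for 19 spore genes (55.9%) and against it for 4 (11.8%), where 22.3% and 23.1% of nuclear genes were. Of the 19, 8 lay under the pseudocount in both xrn1-delta libraries, so that for them the difference reflects the values in WT and DCR1 AGO1. Among genes that reached it in either of these libraries, 11 of 26 spore genes (42.3%) were in favour, against 22.4% of nuclear genes. Those against were 4 (15.4%), where 24.5% of nuclear genes were. A gene can pass this filter through the library where it is high. The difference was largest for SPR3 (3.92), OSW1 (3.89) and CDA2 (3.62), genes with reads in WT and few in any other library, and lowest for SMK1 (-1.66). This difference was not tested.

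**Figure D3:**
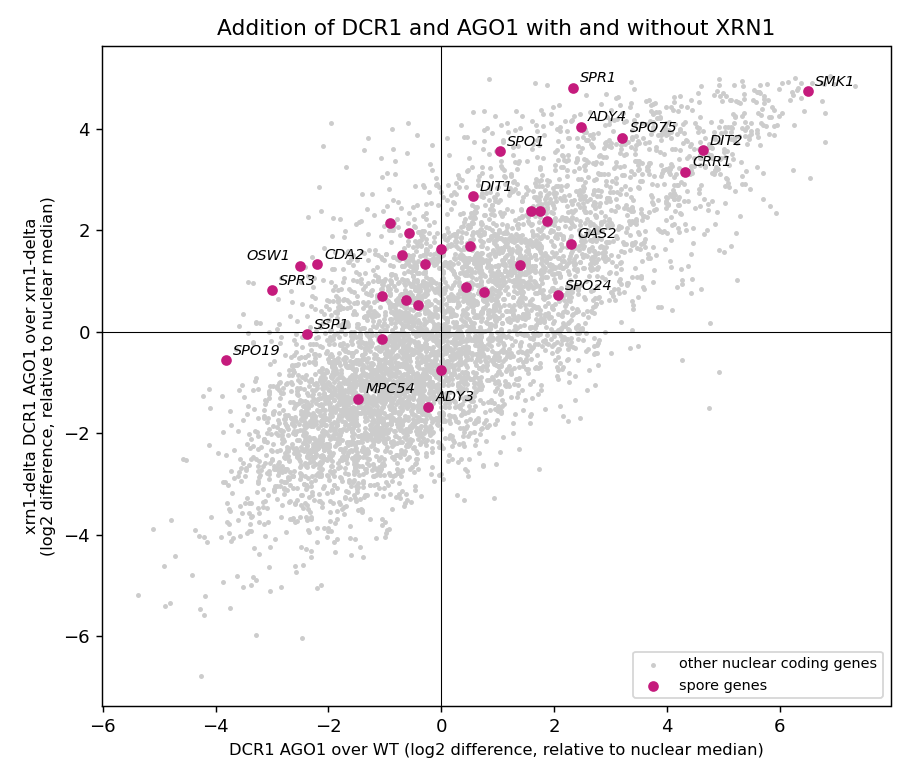
Log2 difference of DCR1 AGO1 over WT (x axis) and of xrn1-delta DCR1 AGO1 over xrn1-delta (y axis), each relative to the median of nuclear coding genes, for the spore genes (magenta) and other nuclear coding genes (grey). SMK1, DIT2, CRR1, SPO75 and ADY4 lie at the upper right, while SPR3, OSW1 and CDA2 lie below 0 on the x axis. The latter lie above 0 on the y axis, but under the pseudocount in both xrn1-delta libraries, so that position is not a call.

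Deletion of XRN1 in cells with the pathway was read from xrn1-delta DCR1 AGO1 over DCR1 AGO1. CRR1, SMK1 (10.6-fold, 9.85 to 11.4), SPO75 (5.52-fold, 4.89 to 6.23), DIT2 (3.82-fold, 3.43 to 4.25), DTR1 (3.01-fold) and SPO19 were 2-fold or more lower, and ADY4, SPO24 (6.84-fold, 5.01 to 9.58), SPO21 (8.32-fold, 4.71 to 16.2) and SPR1 (3.11-fold, 2.79 to 3.49) were higher. The 6 lower are 17.6% of the spore genes against 10.1% of nuclear genes, and the 4 higher 11.8% against 29.1%. In this comparison 12 spore genes were below the pseudocount in both libraries, where 12.2% of nuclear genes were. The relative median was -0.43, and 11 genes were lower and 4 higher relative to the nuclear median (16.4% and 18.2%). With size factors 12 were lower and 3 higher, and the nuclear share under that scaling was not taken. This comparison and the one of xrn1-delta over WT share no library. SMK1, SPO75, CRR1, DTR1 and SPO19 were lower in both, 14.7% of the spore genes against 1.73% of nuclear genes, and SPO24 was higher in both, 2.94% against 13.8%.

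**Figure D4:**
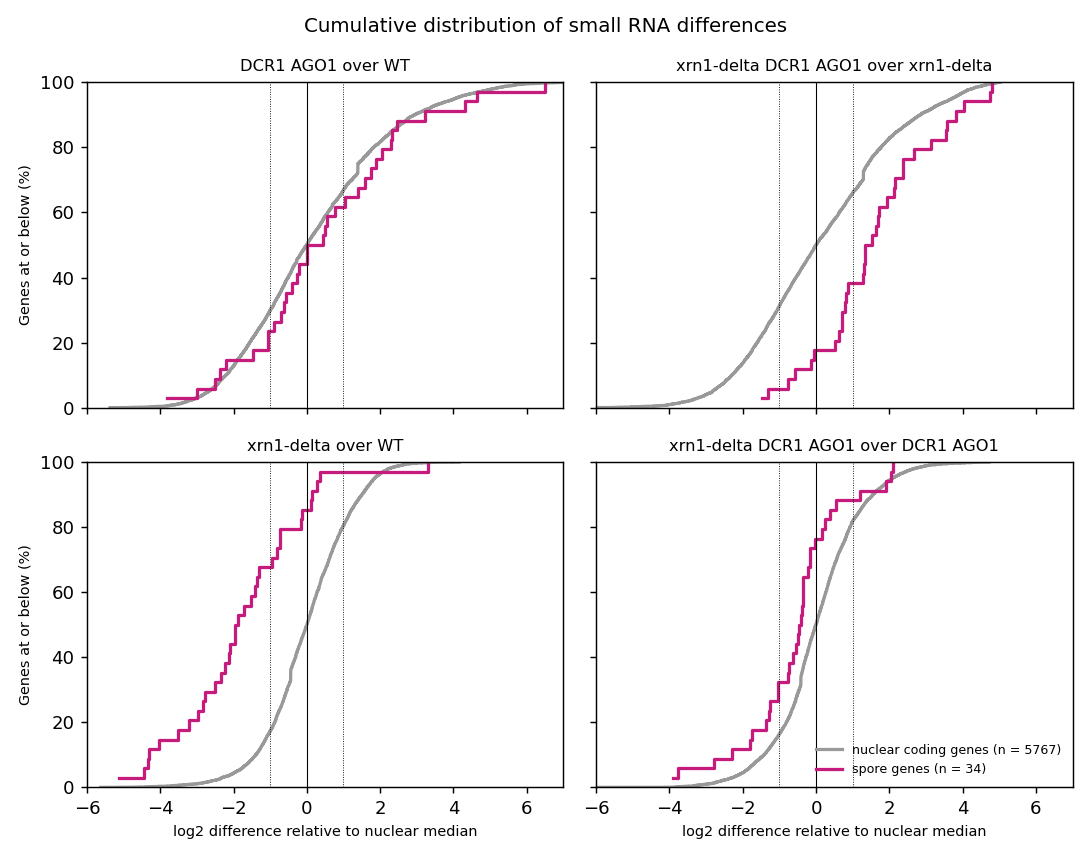
Cumulative share of genes (y axis, percent) by log2 difference relative to the median of nuclear coding genes (x axis) for the 34 spore genes (magenta) and all 5767 nuclear coding genes (grey) in the 4 comparisons; dotted lines mark 2-fold. The spore gene curve lies left of the nuclear curve for xrn1-delta over WT (relative median -1.92) and right of it for xrn1-delta DCR1 AGO1 over xrn1-delta (1.42).

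A count test that takes both backgrounds as replicates of each effect, and so assumes the same effect in both, was also run (edgeR quasi-likelihood, additive model, 1 residual degree of freedom, p adjusted by Benjamini-Hochberg over 5429 genes). It tested 27 of the 34 spore genes. The effects of DCR1 and AGO1 in the 2 backgrounds were not alike for every gene called. Their log2 difference was 2.61 for SPO1, 2.21 for DIT1 and -1.66 for SMK1, but 0.39 for DTR1. For DCR1 and AGO1 the fit called 12 higher and 3 lower at an adjusted p under 0.05, against 20.8% and 19.2% of all genes tested. SMK1 had a log2 change of 6.41 (adjusted p = 3.92e-05), DIT2 4.70 (0.000122), CRR1 4.28 (0.000612), SPO75 4.21 (0.000317), SPR1 3.99 (0.000932) and ADY4 3.64 (0.00211). DTR1, DIT1, SPO77, GAS2, SPO20 and SPO1 were the other 6 that rose, and SPO19 (-4.36, 0.000168), MPC54 (-3.06, 0.0150) and SSP1 (-2.73, 0.0198) fell. The fit set its own library scaling (TMM), so its log2 changes are not on the deposited scale. In the wild-type background alone, SPO1 and DIT1 were lower on the deposited scale, but 1.04 and 0.55 higher relative to the nuclear median. For XRN1 loss it called 3 spore genes, all lower: SPO19 (log2 change -5.72, adjusted p = 1.1e-05), SPO75 (-3.59, 0.0341) and SMA2 (-4.01, 0.0417). Of all genes 0.239% were called lower and 0.184% higher. The genes left out for low counts were SPS2, SPR3, SPR28, SMA1, OSW1, CDA1 and CDA2. With every gene with a read tested, 6 spore genes were called for XRN1 loss, 5 of them lower, where 0.794% of all genes were called. DESeq2 called 8, of which 7 were lower, where 3.35% of all genes tested were called.

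Other genes of the pathway, from lists written for comparison, are given against the same 9.4% lower and 31.6% higher of nuclear genes for xrn1-delta over WT. Of 34 other genes of spore formation 9 were lower and 7 higher (relative median -0.60), of 28 early meiotic genes 10 were lower and 2 higher (-1.23), and of 12 regulators 4 were lower and 1 higher (-0.98). AMA1, which encodes the meiosis-specific activator of the anaphase-promoting complex, had 110 in WT, 1.27 in DCR1 AGO1, 4.96 in xrn1-delta and 0.534 in xrn1-delta DCR1 AGO1, and PFS1, of prospore formation, had 39, 0.953, 0.991 and 0.152. Both had the pattern of SPO19 and SPR3. RIM15, the kinase gene that acts upstream of early meiotic genes, had 182, 5331, 140 and 530. Like SMK1 it was highest in DCR1 AGO1 and next in xrn1-delta DCR1 AGO1, but its drop from WT to xrn1-delta was smaller in fold. With DCR1 and AGO1 added, 14.4% of nuclear genes were higher and 56.8% lower in cells with XRN1, and 14.5% and 54.4% in cells without it. Of the 12 regulators 5 (41.7%) were higher and 4 (33.3%) lower in each background. In the same comparisons 2 of the 34 other spore formation genes (5.88%) were higher and 25 (73.5%) lower in cells with XRN1, and 6 (17.6%) were higher and 22 (64.7%) lower in cells without it, among them VPS13 (429, 26.0, 299 and 10.1), of membrane lipid transport. Of the early meiotic genes 3 (10.7%) were higher and 11 (39.3%) lower with XRN1, and 9 (32.1%) were higher and 3 (10.7%) lower without it. SPO22, of synapsis, had 69, 350, 59.5 and 597.

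No spore gene overlapped an annotated gene on the other strand in R64. The spans of the spore genes used here are those of their coding sequences. Overlap of untranslated regions or of unannotated transcripts was therefore not examined. The downstream neighbour faced the spore gene in 17 of the 34 and lay on the same strand in 17. The relative medians of the 2 classes were -2.09 and -1.89 for xrn1-delta over WT, 0.55 and 0.00 for DCR1 AGO1 over WT, and 1.33 and 1.63 for xrn1-delta DCR1 AGO1 over xrn1-delta. Of the coding sequences, 25 of 34 shared no stretch of 20 bases with the rest of the genome, and SPO21, the highest, shared 0.442% of its stretches.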

How the data were processed

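Small RNA of 10 to 40 nucleotides was sequenced from 4 yeast strains, 1 library per genotype, and groups were taken from the genotype labels. The submitters' processing notes name cutadapt and Bowtie; their versions, the build, the gene models, how strand and multiple matches were handled, and the scaling rule are not given in these sources. The WT column holds a deposited read count per gene. For the remaining 3 libraries the deposited signal of a gene is its read number multiplied by a factor of that library: divided by the smallest value above 0, 100% of values came out whole (tolerance 1e-06), which recovered the reads.

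The members and lists were chosen with earlier results of these data known. Of 5798 identifiers 5789 matched RefSeq R64, and 5767 nuclear coding genes formed the background. No filter on low values was applied to counts of 2-fold differences. Intervals are exact (Clopper-Pearson or Poisson) at 95%, and molecular identifiers are not mentioned, so they cover counting error alone. Values in all libraries were to be given for members with 100 or more reads in all and a value of 31.8 or more in 1 library, and for the 5 highest and lowest differences per comparison; nearly all members were described in the end, and for other lists genes among the 3 largest differences. A count fit was run on recovered reads with edgeR 4.0.16 in R 4.3.3, with DESeq2 1.42.0 as an alternative, and the edgeR fit was tested on simulated data. Other settings were the pseudocount, filters, scaling, members with paralogs and the longer motif.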

Additional observations from a re-analysis of the deposited data

Results flagged for a closer look

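4 spore genes went one way in one background and the other way in the other, beyond counting error in each, both on the deposited scale and relative to the nuclear median. With 1 library per genotype the difference was not tested. SPO21 and SMA2 were lower on addition of DCR1 and AGO1 in cells with XRN1, with relative log2 differences of -0.57 and -0.90, and higher in cells lacking it, with 1.94 and 2.14; for SMA2 the latter rests on 1 read in xrn1-delta, both values lie under the pseudocount, and the difference on the deposited scale is 0.85, so it is not a call. SPO1 and SPR1 were lower on loss of XRN1 in cells without the pathway, with relative differences of -2.09 and -1.41, and higher in cells with it, with 0.55 and 1.20.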

How the results depend on the processing

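The direction of the spore genes' relative median held under every setting run in 3 of the 4 comparisons. In DCR1 AGO1 over WT it was 0.22, but size factors gave -0.027 and a smaller pseudocount, 0.318, gave -0.029, so its sign depends on these settings. At the larger pseudocount of 31.8 these medians were 0.67 (xrn1-delta DCR1 AGO1 over xrn1-delta), -0.76 (xrn1-delta over WT) and -0.12 (xrn1-delta DCR1 AGO1 over DCR1 AGO1). With only genes of 31.8 or more in either library of the comparison they were 3.87, -3.01 and -1.44, in the same order. A gene can enter that filter through the library where it is high, so these larger medians add no weight to the direction. With plain ratios and counts of 0 set to 3 reads, a setting chosen after seeing the data, that of xrn1-delta over WT was -2.55.

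For DCR1 AGO1 over WT, 6 genes were lower with a pseudocount of 31.8 and 8 with the filter at that value; size factors gave 13 higher and 11 lower, and counting relative to the nuclear median, added after seeing the data, gave 13 and 8. For xrn1-delta DCR1 AGO1 over xrn1-delta, 5 were higher and 1 lower with the larger pseudocount, 1 lower with the filter, 3 lower with size factors, and 21 higher and 2 lower relative to the nuclear median. For xrn1-delta over WT, 10 were lower with the larger pseudocount and 12 with the filter. For xrn1-delta DCR1 AGO1 over DCR1 AGO1, 10 were lower with the smaller pseudocount, 12 with size factors and 11 relative to the nuclear median. The cause of these moves was not tested, except that a larger pseudocount shrinks all differences and a filter leaves fewer genes. The filter left 18 spore genes for DCR1 AGO1 over WT, 10 for xrn1-delta DCR1 AGO1 over xrn1-delta and 16 for xrn1-delta over WT. Except for counts relative to the nuclear median, the share of nuclear genes was not taken under these settings. Those counts therefore have no background beside them.

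Without the gene with the most reads the shares of reads were 0.229% in WT, 0.241% in DCR1 AGO1, 0.0614% in xrn1-delta and 0.163% in xrn1-delta DCR1 AGO1. The longer motif was in 73.5% of spore gene promoters. The count fit called 23 genes for XRN1 loss (0.424% of genes tested), 45 with every gene with a read (0.794%) and 186 with DESeq2 (3.35%). Among the spore genes it called 3, 6 and 8, respectively. For DCR1 and AGO1 it called 2172 genes (40.0%), 2134 with every gene with a read (37.6%) and 2386 with DESeq2 (42.1%). Of the recomputed differences of single named genes, 185 stayed within the counting interval of the main value and 71 moved beyond it, and of those that were 2-fold or more none changed sign. Leaving out members that overlap an annotated gene on the other strand removed none. No paired analysis was possible because each genotype has 1 library and the labels carry no replicate numbers, and for the same reason no replicate could be left out. Depth limits the genes with 3 or fewer reads in a library, whose folds have wide intervals.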
